A study of Rattus norvegicus with 6 samples.

Results

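The mRNAs described here encode enzymes and regulators of de novo lipogenesis, the synthesis of fatty acids from acetyl-CoA: Acly, Acss2, Acaca, Acacb, Fasn, Me1, Srebf1, Mlxipl, Thrsp and Pnpla3. They were chosen by symbol as the textbook core of the pathway, with earlier results of these data known. All 10 were found, each on 1 locus, among 32158 loci with a gene symbol. Of the 10, 9 had a mean of at least 1 FPKM (fragments per kilobase of transcript, scaled by a factor for each library) over the 6 libraries. They were compared with the 10201 loci that met the same limit. Pnpla3 was below it and is described by its values alone.

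The study asked how a short period on a Western diet alters hepatic mRNA levels and the association of mRNAs with ribosomes. Livers came from male obesity-prone Sprague Dawley (op-SD) rats weighing 160 to 190 g at the start. For 2 weeks the rats ate the control diet (CD, TD 08485) or the Western diet (WD, TD 88137), which holds more sucrose and milk fat than the CD, and added cholesterol. All were fasted overnight and then refed their own diet before the liver was taken. Total liver RNA was measured beside RNA of a light and a heavy fraction of a sucrose gradient, which was loaded with homogenate of the left lobe. The light fraction held mRNAs bearing at most 3 ribosomes and the heavy fraction those bearing at least 4. RNA of 3 rats per diet was pooled, which leaves 6 libraries, 1 per diet and kind of RNA, and no replicate. No test of a diet difference can be made from these libraries, and every ratio below compares 1 pool with another. The 3 kinds of RNA of a diet derive from the same rats and are not independent of each other. The age of the rats is not given in the sources used here.

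Acetyl-CoA for lipogenesis is split from citrate by ATP citrate lyase (Acly) or made from acetate by acetyl-CoA synthetase (Acss2). Acetyl-CoA carboxylase carboxylates it to malonyl-CoA, and fatty acid synthase (Fasn) joins malonyl units into palmitate with NADPH that comes in part from malic enzyme (Me1). In the liver the genes are driven by SREBP-1c, a product of Srebf1 that acts downstream of insulin, and by the carbohydrate-responsive factor ChREBP, the product of Mlxipl.

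For 8 of the 10 genes, all but Fasn and Acaca, RefSeq windows upstream of a transcription start were available. These were 10 windows of 250 bases on the rat assembly GRCr8. They were searched on both strands for CACGTG, the E-box core, for CCAAT, bound by NF-Y, for GGGCGG, bound by Sp1, and for TCACNCCAC, the sterol regulatory element. None of these motifs contains another. CCAAT stood in 9 of the 10 windows and GGGCGG in 7, against 34.0% and 30.5% of all 33469 windows of the same length. These were windows of 7 and 6 of the 8 genes. Srebf1 and Mlxipl have 2 windows each, and those of Mlxipl overlap almost wholly. CACGTG and TCACNCCAC stood in none of the members' windows, against 5.59% and 0.974% of all windows. In Acly, Acacb and Acss2 the only CCAAT match on either strand began 71, 72 and 73 bases before the start. A match is a description of the letters and not of binding. Shown are the windows of the pair of transcription factor genes, whose mRNAs were higher on the WD, and of both sources of acetyl-CoA, whose mRNAs were lower in the heavy fraction. They lie at chr10:45519011-45519260 (Srebf1, the second of its 2 entries, minus strand), chr12:27213661-27213910 (Mlxipl, minus strand), chr10:85963632-85963881 (Acly, minus strand) and chr3:164464453-164464702 (Acss2, plus strand). Each is written 5′ to 3′ along the gene, and capitals mark CCAAT and GGGCGG or their reverse complements.
Srebf1: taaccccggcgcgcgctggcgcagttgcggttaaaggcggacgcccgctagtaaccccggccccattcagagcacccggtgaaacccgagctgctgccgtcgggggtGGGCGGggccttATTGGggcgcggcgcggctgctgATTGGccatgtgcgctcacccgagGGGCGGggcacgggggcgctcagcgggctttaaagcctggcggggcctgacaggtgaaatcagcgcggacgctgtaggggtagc
Mlxipl: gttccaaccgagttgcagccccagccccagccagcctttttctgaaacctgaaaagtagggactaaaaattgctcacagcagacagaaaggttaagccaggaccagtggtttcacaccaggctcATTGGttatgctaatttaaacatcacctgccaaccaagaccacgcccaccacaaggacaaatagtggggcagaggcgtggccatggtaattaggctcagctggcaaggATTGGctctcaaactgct
Acly: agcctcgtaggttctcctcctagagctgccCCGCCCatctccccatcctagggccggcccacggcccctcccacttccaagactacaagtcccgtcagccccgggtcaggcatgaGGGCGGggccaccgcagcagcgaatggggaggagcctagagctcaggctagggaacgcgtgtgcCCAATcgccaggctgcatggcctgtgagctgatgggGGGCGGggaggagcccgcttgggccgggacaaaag
Acss2: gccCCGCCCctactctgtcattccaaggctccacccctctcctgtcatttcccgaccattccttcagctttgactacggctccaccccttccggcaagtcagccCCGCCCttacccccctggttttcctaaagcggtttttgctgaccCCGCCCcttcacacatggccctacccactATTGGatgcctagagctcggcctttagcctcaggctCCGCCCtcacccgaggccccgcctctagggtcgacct

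Acly and Acss2 stood lower on the WD in the heavy fraction, and Acss2 in each of the 3 kinds of RNA. Acly (chr10:88392248-88442845 of Rnor_6.0, the assembly of the deposited loci) had 39.97 FPKM in total RNA of the CD and 33.5 in that of the WD. Its level was 29.9 FPKM in the light fraction of either diet, and 64.2 FPKM in the CD against 36.3 in the WD heavy fraction. The heavy fraction of the CD was therefore the highest of its 6 libraries, and the diets hardly differed in the light fraction. The WD over CD ratio of Acly was 0.838 in total RNA, 1.00 in the light fraction and 0.566 in the heavy fraction. Behind the heavy ratio were 190 and 110 fragments, a number inferred from the deposited values, and its 95% exact interval of counting error was 0.443 to 0.719. This and all later intervals cover counting error at most, and they compare libraries and not diets. Amplified reads carried no molecular identifier and may repeat a molecule, so the intervals may understate even that error. In bulk RNA, fewer cells of a type and less RNA per cell cannot be told apart.

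Acss2 (chr3:151032952-151075856), whose span also holds SNORA18, was less abundant. In total RNA it had 9.18 FPKM on the CD and 6.51 on the WD, in the light fraction 12.0 and 6.62, and in the heavy fraction 19.1 and 8.05. Each WD library was thus below its CD counterpart. The ratio was 0.713 in total RNA with an interval of 0.374 to 1.32, which includes 1. It was 0.556 in the light fraction (0.314 to 0.979) and 0.425 in the heavy fraction (0.219 to 0.778). No more than 37 fragments stood behind any of these values, so the intervals are wide.

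Acaca and Acacb, which encode the acetyl-CoA carboxylases of the cytosol and of the outer mitochondrial membrane, were lower on the WD in all 3 kinds of RNA and by similar ratios. Acaca (chr10:71536533-71719910) had 21.3 FPKM on the CD and 14.9 on the WD in total RNA, 10.3 and 5.08 in the light fraction, and 40.9 and 28.8 in the heavy fraction. Its ratios were 0.703, 0.5005 and 0.704. Acacb (chr12:48127149-48238887) had 3.42 FPKM on the CD and 2.42 on the WD in total RNA, 2.86 and 1.33 in the light fraction, and 3.64 and 2.25 in the heavy fraction. The ratios of Acacb were 0.717, 0.485 and 0.627. Each WD library was below its CD counterpart for both genes, and the light fraction had the lowest ratio of each. The level of Acaca over Acacb was 6.24 on the CD and 6.17 on the WD in total RNA, 3.59 and 3.82 in the light fraction, and 11.2 and 12.8 in the heavy fraction. The ratio of the paralogs thus differed more between fractions than between diets. It divides by Acacb, whose low values had wide deposited bounds, such as 0 to 2.69 FPKM in the WD light fraction. No fragment number could be inferred for the carboxylases, Me1, Srebf1 or Mlxipl, whose loci each combine 2 groups of start sites, so they have no counting interval.

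Fasn and Me1, which act at the last step of the pathway and in its supply of NADPH, differed in direction. Fasn (chr10:109987735-110005901) had 18.9 FPKM on the CD and 21.6 on the WD in total RNA, 10.9 and 14.5 in the light fraction, and 49.2 and 52.5 in the heavy fraction. Its WD over CD ratios were 1.14 (0.936 to 1.40), 1.33 (1.03 to 1.76) and 1.07 (0.915 to 1.25). The light interval excluded 1 as deposited, but ran from 0.803 to 1.38 when libraries were rescaled to the same sum, where the interval of total RNA was 1.00 to 1.49. All 3 ratios lay between the limits of 0.75 and 1.5 used for calls. Between 76 and 350 fragments stood behind the Fasn values. Me1 (chr8:94256839-94368834) had 69.8 FPKM on the CD and 41.6 on the WD in total RNA, 54.9 and 52.4 in the light fraction, and 75.3 and 43.4 in the heavy fraction. The ratios of Me1 were 0.597, 0.955 and 0.577, so the light fraction differed little while the other kinds of RNA were lower on the WD. With Acaca lower and Fasn higher, the level of Fasn over Acaca was 0.886 on the CD and 1.44 on the WD in total RNA, 1.06 and 2.86 in the light fraction, and 1.20 and 1.83 in the heavy fraction.

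Srebf1 and Mlxipl were higher on the WD in every kind of RNA, most in the heavy fraction. Srebf1 (chr10:46511271-46593009) had 28.0 FPKM on the CD and 35.1 on the WD in total RNA, 26.1 and 43.1 in the light fraction, and 42.3 and 85.0 in the heavy fraction. Its ratios were 1.25, 1.65 and 2.01. The locus spans Rai1 as well, and it does not tell the SREBP-1a and SREBP-1c transcripts apart. Mlxipl (chr12:24590622-24619639) had 12.8 FPKM on the CD and 19.4 on the WD in total RNA, 7.46 and 13.6 in the light fraction, and 12.9 and 26.4 in the heavy fraction. The ratios of Mlxipl were 1.52, 1.81 and 2.04, and its deposited bounds reached 0 in 4 of the 6 libraries. In total RNA its ratio lay just past the upper limit of 1.5. For Srebf1 and Mlxipl alike the heavy ratio was higher than that of 87.0% and 87.2% of the loci compared.

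Thrsp (chr1:162381253-162385575), which encodes the lipogenic protein Spot 14, was the most abundant member in 5 of the 6 libraries. Its level was 67.0 FPKM on the CD and 70.1 on the WD in total RNA, 119 and 123 in the light fraction, and 112 and 150 in the heavy fraction. The ratios were 1.05 (0.756 to 1.45), 1.03 (0.810 to 1.33) and 1.34 (1.00 to 1.79). The diets did not differ beyond counting error in total RNA or the light fraction, and in the heavy fraction the lower bound touched 1 and was 0.983 after rescaling. Pnpla3 (chr7:125034764-125055976), which encodes a lipid droplet protein induced by feeding in rodent liver, was near the limit of detection. It had 0.290 FPKM in CD total RNA, 0.424 in the CD and 0.390 in the WD light fraction, and was listed at 0 in the other 3 libraries. These values rest on 4 fragments in all. A count of 0 allows up to 0.910 FPKM in WD total RNA, 1.37 in the CD and 1.33 in the WD heavy fraction, so a diet difference was not detectable at this depth.

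**Figure D1:**
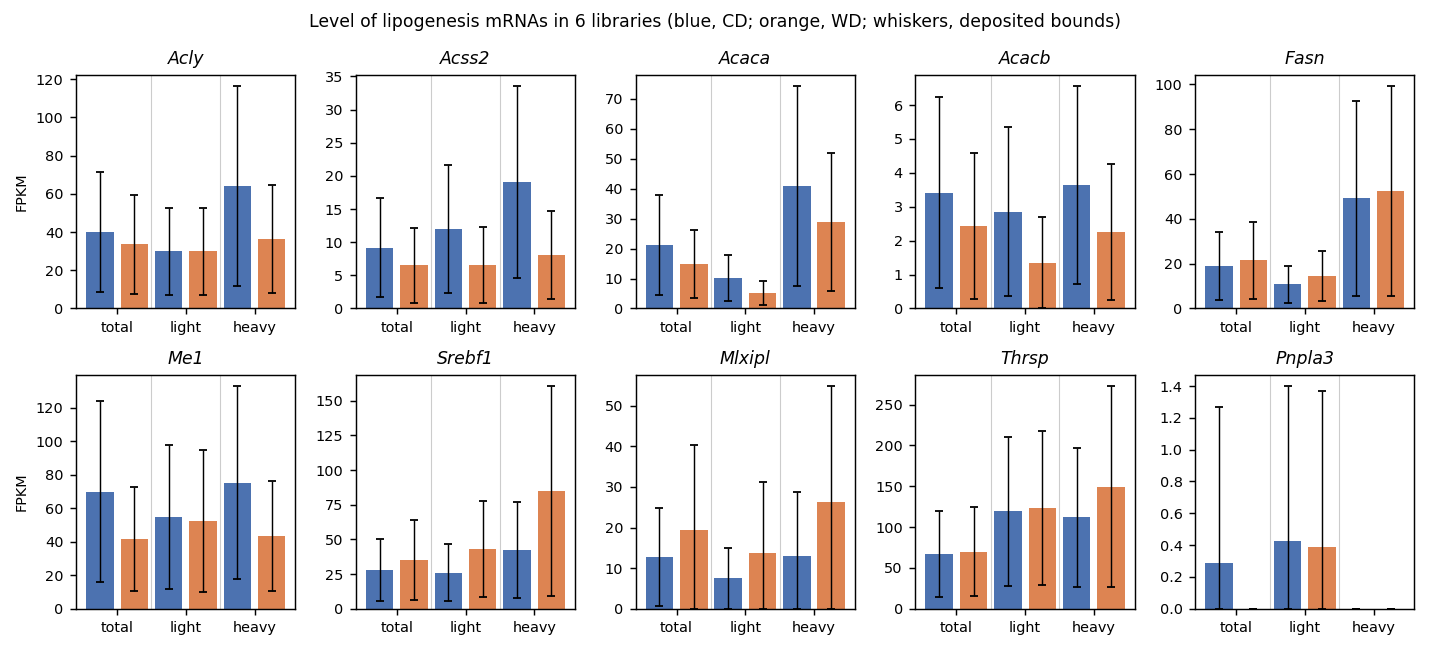
Level in FPKM (vertical axis, its own scale in each panel) of the 10 mRNAs in total RNA and the light and heavy fractions of the CD (blue) and the WD (orange). Each bar is 1 library and the whiskers are the bounds deposited with it; Srebf1 reaches 85.0 FPKM in the WD heavy fraction against 42.3 in that of the CD, while Acly stands at 36.3 against 64.2.

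The members differed widely in level. In CD total RNA the order was Me1, Thrsp, Acly, Srebf1, Acaca, Fasn, Mlxipl, Acss2, Acacb and Pnpla3. In WD total RNA, Thrsp stood above Me1, Srebf1 above Acly, and both Fasn and Mlxipl above Acaca. Neighbours in the order had overlapping deposited bounds in all 9 pairs of CD total RNA, CD light and WD light, and in 8 of 9 in the other libraries. The exception was each time Acacb above Pnpla3, whose value and deposited bounds were all 0. A count of 0 allows up to 0.910 FPKM in WD total RNA, 1.37 in the CD and 1.33 in the WD heavy fraction. These limits lie above the lower bounds of Acacb there (0.266, 0.710 and 0.244 FPKM), so this order was not resolved. The bounds are wide, and those of the same gene on the CD and the WD overlapped for all 9 members in each kind of RNA. The summed level of the 10 members was 271 FPKM on the CD and 245 on the WD in total RNA, 274 and 290 in the light fraction, and 419 and 432 in the heavy fraction. The sums of the diets were closer to each other than those of most single members.

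Members at a WD over CD ratio of at least 1.5 or at most 0.75 were counted beside all loci compared. The study's methods set these numbers on the CD over WD ratio of ribosome density alone, and the limits are not symmetric. Read on CD over WD, they equal WD over CD ratios of at most 0.667 and at least 1.33. In total RNA, 1 of 9 members (Mlxipl) was at or above 1.5 and 4 (Acss2, Acaca, Acacb and Me1) were at or below 0.75, against 17.7% and 22.7% of loci. In the light fraction 2 (Srebf1 and Mlxipl) were above and 3 (Acss2, Acaca and Acacb) below, against 25.9% and 26.8% of loci. In the heavy fraction 2 (Srebf1 and Mlxipl) were above and 5 (Acly, Acss2, Acaca, Acacb and Me1) below, against 21.7% and 25.8% of loci. With libraries rescaled to the same sum, 1 member (Me1) was at or below 0.75 in total RNA and 0 were at or above 1.5 in the light fraction, where Srebf1 had a ratio of 1.29 and Mlxipl one of 1.42. With the limits read on CD over WD, the lower count of total RNA was also 1 (Me1). The heavy fraction had 2 above and 5 below after rescaling as well. The median log2 change of the members was -0.26 in total RNA, 0.003 in the light and -0.51 in the heavy fraction, beside 0.022, 0.017 and -0.015 over the loci. Fasn, Srebf1, Mlxipl and Thrsp were higher on the WD in all 3 kinds of RNA, except that Thrsp turned to a log2 change of -0.30 in the light fraction when libraries were rescaled to the same sum. Acss2, Acaca, Acacb and Me1 were lower in all 3, also after that rescaling, which moved the median of the loci by -0.31 in the light fraction. Loci higher in all 3 made up 13.4% of the 10201 and those lower in all 3 also 13.4%. With 9 genes chosen by name while earlier results of these data were known, these counts are a description. They also rest on 1 pool per diet and RNA of the same rats in each comparison.

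**Figure D2:**
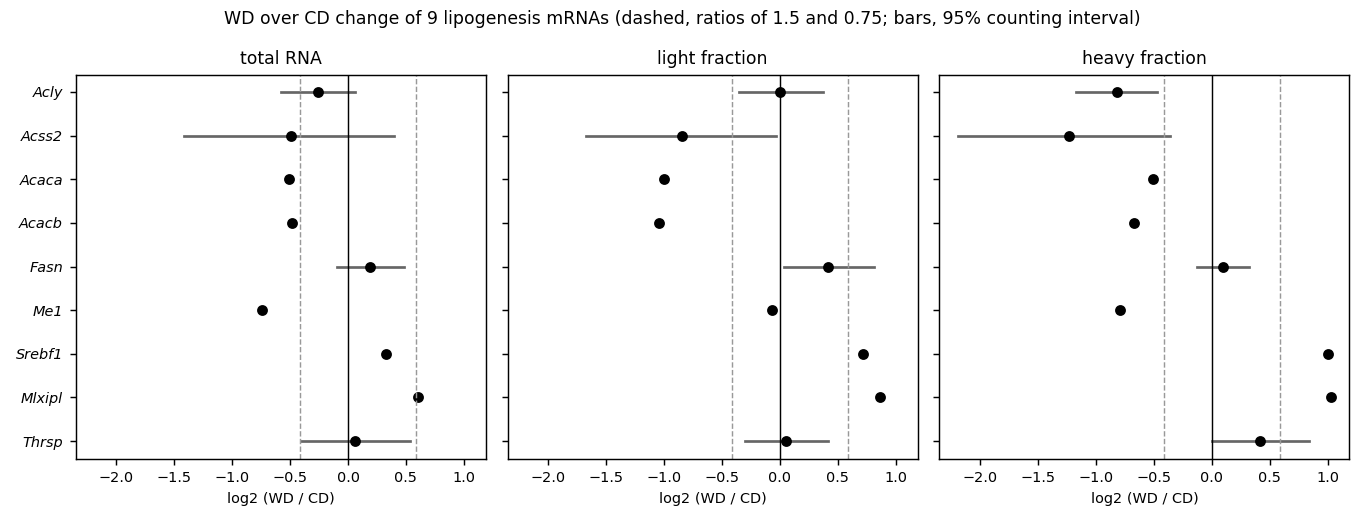
WD over CD change (log2 of FPKM plus 0.1, horizontal axis) of the 9 compared mRNAs in total RNA, the light and the heavy fraction. Points are single library pairs, bars the 95% counting interval where fragments could be inferred, and dashed lines the ratios of 0.75 and 1.5; Srebf1 and Mlxipl stand at about 1.01 and 1.03 in the heavy fraction, and Acss2 at -1.23.

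The heavy over light ratio describes how an mRNA was spread over the gradient relative to other mRNAs. FPKM is scaled by a factor for each library and not to the amount of RNA in a fraction. A ratio of 1 therefore does not mean equal amounts in both fractions. On the CD the ratio was 4.49 for Fasn, with an interval of 3.51 to 5.89, and 3.96 for Acaca, which exceeded the ratios of 93.6% and 92.3% of the loci. It was 2.14 for Acly (1.67 to 2.78), 1.72 for Mlxipl, 1.62 for Srebf1, 1.58 for Acss2, 1.37 for Me1, 1.27 for Acacb and 0.940 for Thrsp. On the WD, Acaca had the highest ratio at 5.57 and Fasn followed at 3.59 (3.04 to 4.29). Acacb, which encodes a protein of similar make to that of Acaca, was lower on either diet, at 1.64 on the WD. The levels of Acacb were at most 3.64 FPKM and had no counting interval. Of 9 members, 8 had a ratio above 1 on the CD, all but Thrsp, against 50.2% of loci. On the WD 8 did, all but Me1 at 0.828, against 48.5% of loci. When libraries were rescaled to the same sum, Me1 was above 1 on the WD too, with a log2 ratio of 0.036. At or above 1.5 were 6 members on the CD and 5 on the WD, against 32.9% and 31.4% of loci, and at or below 0.75 were 0 members on either diet, against 36.6% and 38.5% of loci. The median log2 ratio of the members was 0.69 on the CD and 0.71 on the WD, beside 0.012 and 0 over the loci.

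**Figure D3:**
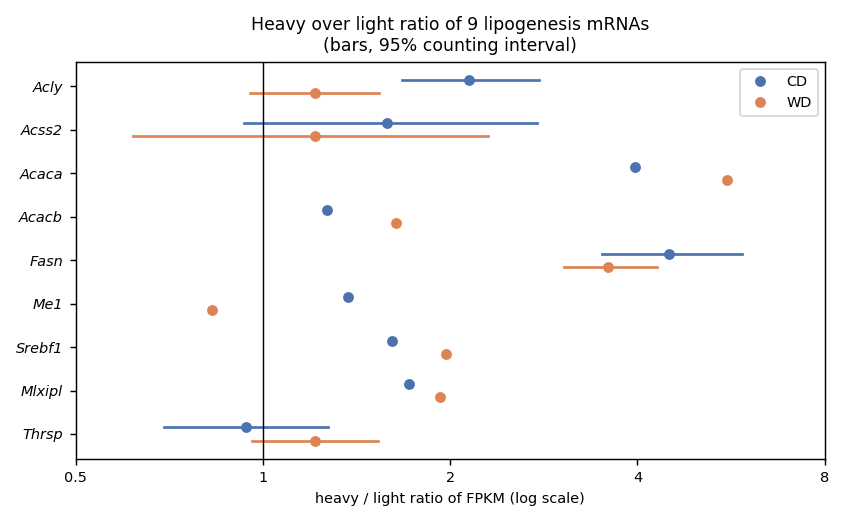
Heavy over light ratio of FPKM (horizontal log axis) of the 9 compared mRNAs on the CD (blue) and the WD (orange). Points are ratios of 2 libraries and bars the 95% counting interval where fragments could be inferred; Fasn and Acaca lie farthest right on both diets, and Acly moves from 2.14 to 1.21.

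Ribosome density was compared as the heavy over light ratio of the WD divided by that of the CD, and it reuses the fraction libraries above. No member was at or above 1.5, against 27.7% of loci, and 2, Acly and Me1, were at or below 0.75, against 36.1% of loci. For Acly the ratio went from 2.14 to 1.21, a density change of 0.565 (0.397 to 0.802), the only one of 4 members with fragment numbers whose interval excluded 1 on the values as deposited. Me1 had a density change of 0.604, with 1.37 on the CD and 0.828 on the WD. Acaca (1.41), Acacb (1.29), Thrsp (1.29), Srebf1 (1.22) and Mlxipl (1.12) were higher, and Acss2 (0.765) and Fasn (0.8001) lower, all within the limits. With the limits read on CD over WD, Acaca was past the upper one. The Thrsp, Acss2 and Fasn intervals included 1, and the Fasn log2 change went from -0.32 to 0.005 when libraries were rescaled, a setting that moved the median of all loci by 0.30. The same setting put 4 members at or above 1.5 (Acaca, Acacb, Srebf1 and Thrsp) and ended the call of Me1, at 0.758. Acly was then 0.709 with an interval of 0.498 to 1.01, which includes 1, and that of Thrsp was 1.10 to 2.39, which does not. When heavy was divided by total RNA instead, the log2 change was -0.57 for Acly but -0.05 for Me1. With this divisor Acss2, at -0.745, was past the lower limit beside Acly, and Srebf1, at 0.68, was past the upper one.

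The neighbouring steps of the pathway were read from 9 lists with 86 genes, of which 83 were found and 74 compared, 3 by an older symbol. In total RNA, 5 of the 74 (6.76%) were at or above 1.5 and 21 (28.4%) at or below 0.75, against 17.7% and 22.7% of all loci, and their median log2 change was -0.16. In the heavy fraction 8 (10.8%) were above and 19 (25.7%) below, against 21.7% and 25.8% of loci. In the light fraction 10 (13.5%) were above and 26 (35.1%) below, against 25.9% and 26.8%. For density, 22 (29.7%) were above and 20 (27.0%) below, against 27.7% and 36.1%.

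Upstream, the carbohydrate entry list had 4 of 9 genes at or below 0.75 in total RNA and none at or above 1.5. Pklr, which encodes liver pyruvate kinase, had 54.5 FPKM on the CD and 24.6 on the WD, a ratio of 0.452 (0.305 to 0.657). Slc2a2, the glucose transporter GLUT2, had 115 and 117 FPKM. In the acetyl-CoA and citrate supply list 1 of 9 was at or below 0.75, Mpc1 of the mitochondrial pyruvate carrier, with 26.5 and 18.5 FPKM and an interval of the ratio of 0.328 to 1.44. All 5 genes of the NADPH supply list were higher on the WD in total RNA, against 51.1% of all loci, and 1 was at or above 1.5. Taldo1, the transaldolase, had 15.2 and 21.2 FPKM (0.725 to 2.73). Me1, the member that also supplies NADPH, went the other way at 0.597.

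Downstream, all 7 genes compared of chain elongation and desaturation were lower on the WD in total RNA, against 47.0% of all loci. Of these, 4 were at or below 0.75, against 22.7% of loci, and the median log2 change was -0.66. The median was -1.21 in the light and -0.29 in the heavy fraction. Density went the other way, with 5 of 7 at or above 1.5 and 1 at or below 0.75, against 27.7% and 36.1% of loci. Its median log2 change was 0.87. Fads1, the delta-5 desaturase, had 50.0 FPKM on the CD and 13.6 on the WD, a ratio of 0.274 (0.194 to 0.377). For malonyl-CoA fate and fatty acid activation, 1 of 9 was at or above 1.5 and 2 at or below 0.75. Cpt1a, the carnitine palmitoyltransferase that malonyl-CoA inhibits, had 82.0 and 59.6 FPKM, a ratio of 0.727 (0.620 to 0.851).

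Among regulators, the SREBP processing list had 1 of 12 genes at or above 1.5 and 4 at or below 0.75 in total RNA. Insig2, which retains SREBP in the endoplasmic reticulum, had 192 and 259 FPKM (ratio 1.35, 1.11 to 1.66), and Srebf2, the paralog of Srebf1 that drives sterol synthesis, had 15.8 and 10.7 FPKM. In the heavy fraction Srebf2 had 20.7 and 10.2 FPKM. Srebf1 and Srebf2 thus differed in direction in total RNA and the heavy fraction but not, as deposited, in the light fraction, where Srebf2 had 10.0 and 12.0 FPKM. In the LXR, ChREBP and insulin arm 1 of 10 was above and 1 below, namely Rxrb with 5.64 and 12.1 FPKM and Nr1h3, the liver X receptor alpha, with 32.3 and 21.0 (0.408 to 1.02). Both went the other way in the light fraction, where Rxrb had 12.4 and 5.69 FPKM and Nr1h3 had 36.6 and 66.1, a ratio of 1.80 (1.27 to 2.61). In the list of ACC and FASN regulators 0 of 10 were above and 4 below. Trib3, a pseudokinase, had 10.6 and 2.64 FPKM in total RNA (0.0733 to 0.678) but 32.5 and 33.3 in the heavy fraction, and Mid1ip1, the partner of Spot 14, had 57.3 and 59.9 FPKM. Of the close relatives of members only 3 were compared, with 1 above and 1 below, and Pnpla8 had 49.4 and 49.8 FPKM.

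**Figure D4:**
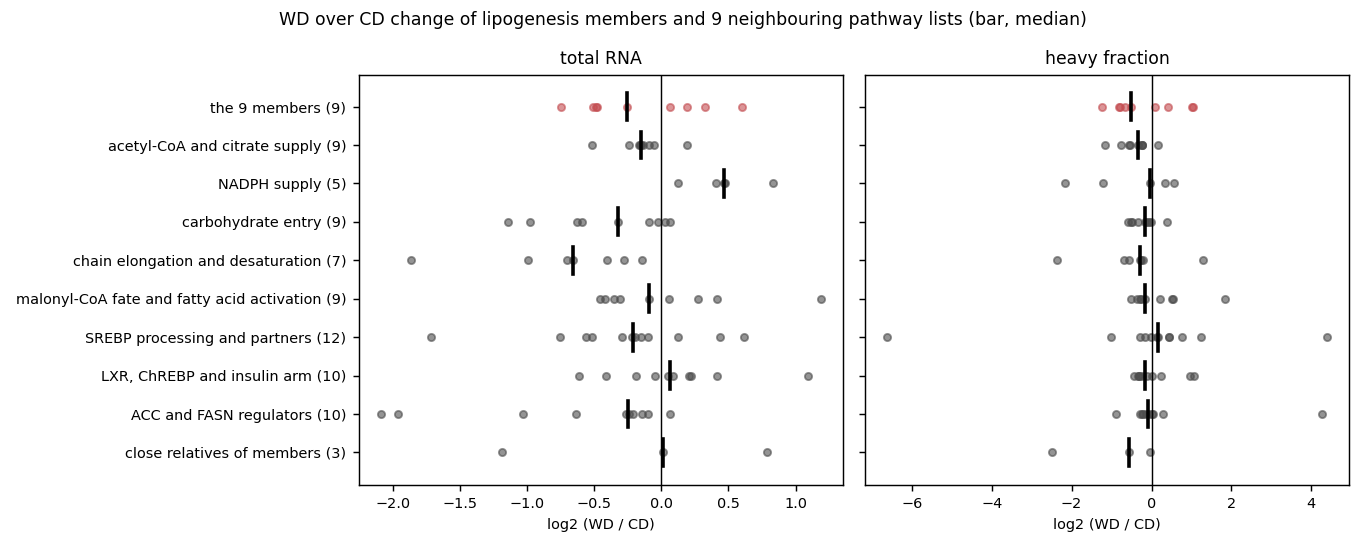
WD over CD change (log2 of FPKM plus 0.1, horizontal axes of different range) in total RNA and the heavy fraction for the 9 members (red) and the genes compared in 9 neighbouring lists (grey, number in brackets). Each point is 1 gene and each bar a median; the chain elongation and desaturation list has a median of -0.66 and the NADPH supply list one of 0.47 in total RNA.

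Across the 6 libraries the members did not share 1 profile. The correlation of each member with the mean of the 9, on log2 values centred on each library's median, ran from 0.356 for Thrsp and 0.441 for Me1 to 0.944 for Acaca and Fasn. Each member is itself part of that mean, so these values are not independent of it. Among 3900 other genes with a mean of at least 10 FPKM, those closest to the mean profile were Acsl1 (r = 0.999), Decr1 (0.998), Clec2g (0.997), Eif3b (0.996) and Eif4a3 (0.996). These points share diets, rats and libraries, so the values only describe likeness over 6 libraries. Acsl1, a long-chain acyl-CoA synthetase, had 1006 FPKM on the CD and 788 on the WD in total RNA, and 2569 and 2092 in the heavy fraction.

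The libraries differed in ways that move with these values. The sum over loci with a symbol ran from 616030 to 866676 FPKM, highest in the WD light fraction, and the number of inferred fragments from 333728 to 753166, highest in the same library. Markers of red blood cells summed to 27.5 to 105 FPKM in 5 libraries and to 545 in the WD light fraction. Their part in the light fraction and density values was not tested. All 10 hepatocyte markers were detected, with sums of 45108 to 138017 FPKM. Of 8 adipocyte markers, Adipoq, Lep, Plin1 and Retn were at 0 in all libraries, while Cidec, Fabp4, Cfd and Car3 were detected. The list summed to 286 to 776 FPKM and was 1.74 times as high in WD as in CD total RNA. Macrophage markers summed to 78.9 to 193 FPKM, endothelial ones to 58.8 to 85.7 and stellate cell ones to 52.8 to 85.5, while Krt7, Spp1 and Cftr of the cholangiocyte list were at 0 throughout and the list summed to at most 4.35 FPKM. The part of other cell types in the members' values was not tested.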

How the data were processed

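RNA was measured in 6 libraries of rat liver, 1 for each diet (CD or WD) and kind of RNA (total, light, heavy). The authors depleted ribosomal RNA with RiboErase, used TopHat to align reads to Rnor_6.0, and deposited FPKM values of Cufflinks and Cuffnorm for 33022 loci, with a lower and an upper bound for each. Their methods also describe a route for ribosome profiling reads, and which route the fraction reads took is not certain. The annotation is not given in the sources used here. Loci were compared if they had a symbol, if Cufflinks gave them the status OK, and if they averaged 1 FPKM or more.

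Log2 changes were computed from the deposited FPKM values plus 0.1 FPKM, and ratios or folds set the WD over the CD. Ratios of at least 1.5 and at most 0.75 were counted, limits that the authors set on CD over WD ribosome density. Since Cufflinks scales whole fragments by 1 factor per library and 1 step per gene, fragment numbers could be inferred for 79.3% of the 12460 genes that were above 0 in 2 or more libraries. From these, exact Clopper-Pearson intervals at 95% were computed for ratios and conditional odds-ratio intervals for density. The inferred numbers are estimates, since any common multiple of them would fit as well. The procedure was tested on simulated data. With 1 library per group no test across loci was run.

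The members and lists were chosen with earlier results of these data known. All 10 members were named. Of each list, the genes with the largest rise and fall in abundance or density among those with a mean of at least 10 FPKM could be named, and for likeness to the members the 5 genes with the highest correlation. Alternatives were other pseudocounts, filters, scalings, limits and divisors. Upstream windows came from RefSeq (GRCr8), whose coordinates were not combined with those of Rnor_6.0. Python 3.11.15, numpy 2.4.6, pandas 2.3.3, scipy 1.17.1 and matplotlib 3.10.9 were used.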

Additional observations from a re-analysis of the deposited data

Results flagged for a closer look

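Acly stood out because its change between the diets differed in sign between the light and heavy fractions, although the light fraction hardly differed. Its log2 WD over CD change was 0.003 in the light and -0.82 in the heavy fraction, a density change of -0.82 on the log2 scale. The difference was not tested across rats, since each fraction is 1 library per diet. In the light fraction the direction turned to -0.35 when libraries were rescaled to the same sum, after which both fractions were lower on the WD and the interval of the density ratio, 0.498 to 1.01, included 1.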

How the results depend on the processing

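Of 613 values recomputed under other settings, 15 turned in direction and 25 moved, which for a count means by over 1.5 times and for a log2 value by more than the narrowest counting half-width of its comparison (0.22 to 0.45). The other 573 stayed within these margins, which still allowed Acly density to go from -0.82 to -0.50. They include log2 values of single genes under other filters and limits. Those could not change, since such settings alter only which loci or limits are counted. The number that stayed is therefore no measure of robustness. With libraries rescaled to the same sum, the median of the members was -0.35 in the light fraction, as was Acly, Thrsp was -0.30 there, and the heavy over light median on the WD was 1.00. Rescaling left 1 member at or below 0.75 in total RNA, 0 at or above 1.5 in the light fraction, and for density 4 above and 1 below. The median over the loci became -0.29 in the light fraction and 0.28 for density, Fasn density became 0.0049 and the heavy over light log2 ratio of Me1 on the WD 0.036. Centred on the median of the loci, the light fraction median and Acly there were -0.014, and 0 members were at or above 1.5 in total RNA, as with a pseudocount of 1 FPKM. Without a filter, which adds Pnpla3, the light and heavy medians were -0.032 and -0.25, and 1 member was at or below 0.75 for heavy over light on either diet. With a mean of at least 10 FPKM, the members' heavy and density medians were -0.21 and -0.077, and those of the loci -0.051 for the light fraction and 0.034 for density. With the limits read on CD over WD, 1 member was past the lower one (a WD over CD ratio of at most 0.667) in total RNA and 1 past the upper one (at least 1.33) for density. With the heavy fraction over total RNA, 1 member was at or above 1.5, the median was -0.049 and Acacb was -0.19. The causes were not tested beyond what each setting changes by construction. No paired analysis was possible because each group is 1 library, and none could be left out. Depth limits Acss2, with 16 to 37 fragments behind a value, and Pnpla3, with 4 in all.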
